A study of Mus musculus with 12 samples.

Results

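Transcripts of the hormone and neuropeptide genes of islet and gut endocrine cells were followed in the pancreata of β-catenin KO and wildtype mouse embryos. The genes were chosen by name, as Ins1, Ins2, Gcg, Sst, Ppy, Pyy, Iapp, Ghrl, Gip and Npy, and every probe set annotated with 1 of these symbols alone was taken. Of the 10 genes 9 were measured, on 12 of the 45037 probe sets of the array, beside 18193 named genes in all. Ins1 had no probe set with that single symbol and is not analysed here. Iapp had 4 probe sets and each of the other 8 genes had 1.

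Each of 12 embryonic pancreata was hybridized to its own Affymetrix MOE430 2.0 array: 4 β-catenin KO and 2 wildtype at E14.5, and 4 KO and 2 wildtype at E16.5. The KO embryos carried Pdx1Cre/+ and 2 floxed β-catenin alleles, in which Cre removes the exons between the loxP sites, and the wildtype embryos came from the same intercross of Pdx1Cre/+ mice heterozygous for the floxed allele. Whether a wildtype embryo carried the Cre transgene was not given in the sources used here. The Pdx1 promoter drives Cre in the pancreatic epithelium, including the progenitors of endocrine cells, and not in the mesenchyme, and the deletion can be mosaic. The study asked what loss of β-catenin, the transcriptional mediator of canonical Wnt signalling, does to the developing exocrine and endocrine pancreas. The authors deposited each value divided by the day's wildtype mean, so that a ratio of 1 is that mean. Abundance, and any course between E14.5 and E16.5, are therefore not in the values, and the 2 wildtype ratios of a day always sum to 2.

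Islets of Langerhans hold several endocrine cell types, each known by the hormone it releases. Beta cells make insulin and co-secrete islet amyloid polypeptide, alpha cells make glucagon, delta cells somatostatin, PP cells pancreatic polypeptide and the epsilon cells of the embryo ghrelin. Peptide YY and neuropeptide Y belong with pancreatic polypeptide to 1 family of related peptides. Peptide YY is made by early endocrine cells of the pancreas and by L cells of the gut, and neuropeptide Y by sympathetic and other neurons and by some islet cells. Gip, the glucose-dependent insulinotropic polypeptide, is an incretin of the K cells of the intestine. Hormones are made as longer precursors that proprotein convertases cut inside dense-core granules, and the granins fill these granules. In a whole pancreas, fewer or more cells of a type cannot be told apart from less or more RNA per cell.

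Of the 9 measured genes, 8 matched an upstream sequence of RefSeq (GRCm38.p6). The sequences of the genes with the clearest differences that matched, together with Gcg, are shown. Where the letters searched for are present, they can be read in them. Each is the 250 bases before the start of transcription, 5′ to 3′ on the strand of the gene, with matches in capitals. They lie at chr11:96024295-96024544 (Gip, plus strand), chr6:49822460-49822709 (Npy, plus strand), chr6:142298175-142298424 (Iapp, plus strand) and chr2:62483654-62483903 (Gcg, minus strand).
Gip: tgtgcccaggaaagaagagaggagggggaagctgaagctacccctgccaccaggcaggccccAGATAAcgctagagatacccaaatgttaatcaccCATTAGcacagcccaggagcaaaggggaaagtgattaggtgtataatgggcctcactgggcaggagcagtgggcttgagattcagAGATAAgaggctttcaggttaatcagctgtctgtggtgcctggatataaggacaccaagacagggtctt
Npy: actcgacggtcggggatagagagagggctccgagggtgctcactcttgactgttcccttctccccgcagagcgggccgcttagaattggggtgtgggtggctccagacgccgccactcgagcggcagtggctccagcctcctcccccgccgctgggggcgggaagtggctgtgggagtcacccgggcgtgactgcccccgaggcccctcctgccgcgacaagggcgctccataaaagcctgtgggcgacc
Iapp: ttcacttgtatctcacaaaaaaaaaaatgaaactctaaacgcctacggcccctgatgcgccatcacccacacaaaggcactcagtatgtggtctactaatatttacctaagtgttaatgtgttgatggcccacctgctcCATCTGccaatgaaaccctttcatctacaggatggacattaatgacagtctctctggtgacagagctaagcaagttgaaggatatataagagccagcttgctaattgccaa
Gcg: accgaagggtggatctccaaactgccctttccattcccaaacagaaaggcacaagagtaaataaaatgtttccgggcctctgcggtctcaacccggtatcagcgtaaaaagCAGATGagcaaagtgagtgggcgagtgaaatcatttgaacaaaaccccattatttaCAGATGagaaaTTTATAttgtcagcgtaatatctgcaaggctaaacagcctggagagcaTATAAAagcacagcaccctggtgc

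On either strand 6 sets of letters were searched in these windows and in 32851 RefSeq windows of the same length. AGATAA, a site of GATA factors, was found at 2 positions in Gip and in no other hormone gene, against 9.99% of all windows. CTAATG, an A-box of the kind Pdx1 can bind, was in Gip and Sst (6.36% of all windows), and CATCTG, an E-box of NeuroD, was at 2 positions in Gcg and 1 in Iapp (14.4%). TATAAA was at 2 positions in Gcg and 1 in Ppy (12.4%), and the cyclic AMP response element TGACGTCA was in Sst alone (1.55%). CTTTGA, the core letters of a TCF/LEF site through which β-catenin acts, was in 0 of the 8 windows, against 13.8% of all windows. The Npy window held none of the 6, and no matches overlapped each other. A match is a run of letters and not a tested binding site, and the lack of one says only that the letters are not in these 250 bases. The searched letters were not tied to the measurements.

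At E14.5, 11 of the 12 hormone probe sets had a higher mean log2 ratio in KO than in wildtype pancreata, as did 55.4% of all probe sets. Npy, Ins2, Gip and 1 Iapp probe set lay furthest apart, with mean KO ratios between 2.90 and 5.83. None of the 12 passed after adjustment over the whole array (limma adjusted p 0.102 to 0.998), where 5 probe sets in all, or 0.0111%, passed. Without adjustment 6 of the 12 had a limma p under 0.05, all of them higher in KO, and 2.34% of all probe sets did so in that direction (6.86% in either). The log2 fold change, the difference of the mean log2 ratios of KO and wildtype, exceeded 1 for 4 of the 12 and for 0.244% of all probe sets. All 4 KO values lay above both wildtype values on 6 of the 12, and on 8.17% of all probe sets. With array weights Ins2, Gip and Npy passed (limma adjusted p = 0.018, 0.0397 and 0.0466), and without KO_615A Gip and Ins2 passed (0.0415 and 0.0497). Without the E16.5 array KO_591D, which enters the shared estimate of the spread, Ins2 alone passed (0.0385).

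**Figure D1:**
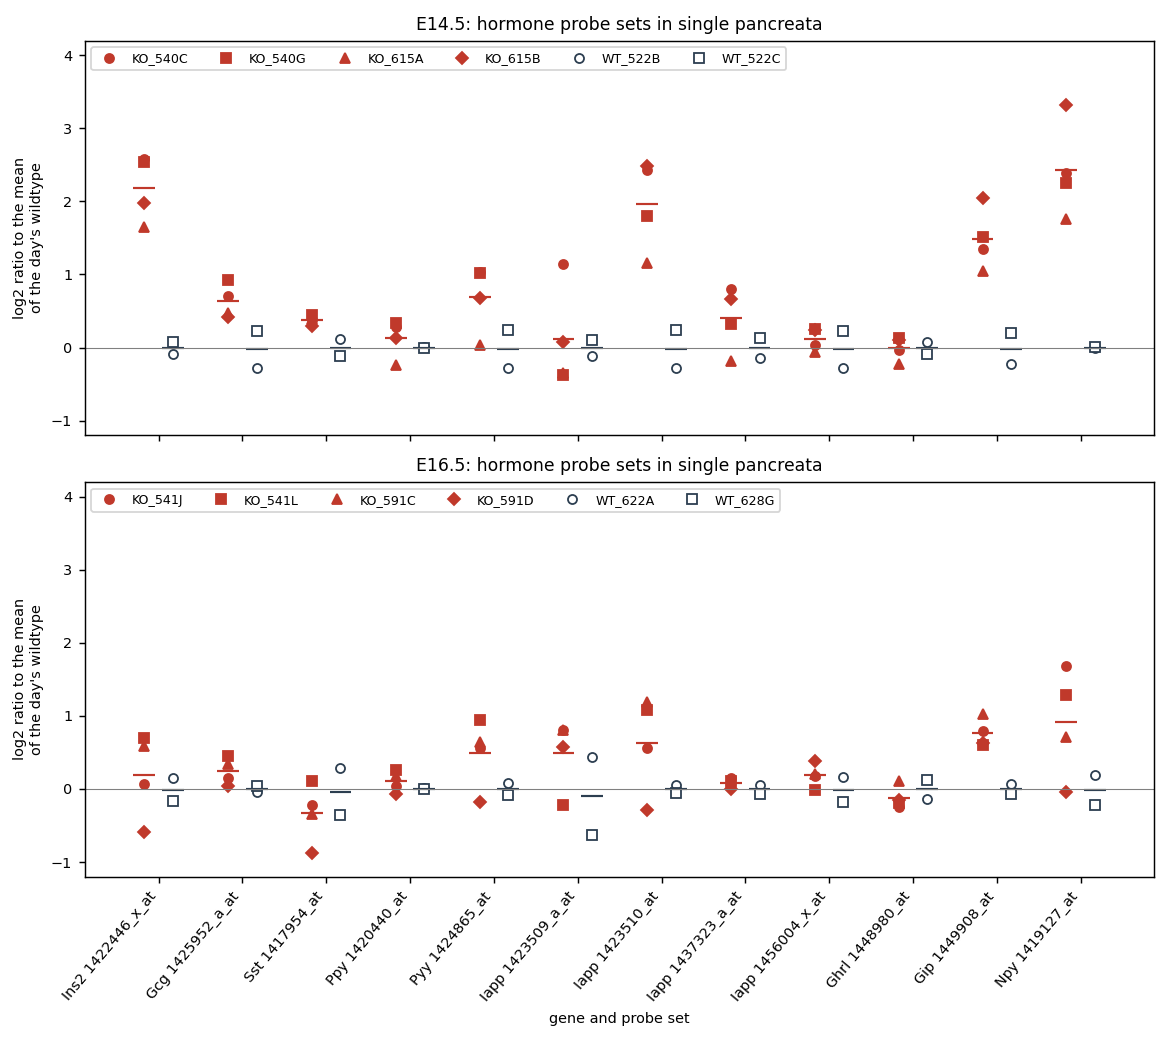
The log2 ratio to the mean of the day's wildtype arrays (vertical axis) of each hormone probe set (horizontal axis) at E14.5 above and E16.5 below. Filled symbols are single KO pancreata, open symbols single wildtype pancreata, and short bars are group means. At E14.5 Ins2, Gip, Npy and Iapp 1423510_at have all 4 KO points above 1 on the log2 scale, whereas at E16.5 only Gip has all 4 KO points above both wildtype points.

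Ins2, which encodes an insulin precursor, is the gene of beta cells. Its ratio at E14.5 was 5.996, 5.80, 3.14 and 3.93 in KO_540C, KO_540G, KO_615A and KO_615B, against 0.943 and 1.06 in the wildtype pancreata. The groups did not overlap, and the KO mean was 4.72 ± 1.40 (SD, n = 4). The log2 fold change was 2.19 (standard error 0.34, 95% interval 1.45 to 2.93, limma adjusted p = 0.111), the 11th highest of the array. At E16.5 its ratio was 1.04, 1.62, 1.502 and 0.662 in KO_541J, KO_541L, KO_591C and KO_591D, against 1.11 and 0.895 in wildtype. The KO values then lay on both sides of the wildtype values. The log2 fold change at E16.5 was 0.20 (95% interval -0.55 to 0.94, limma adjusted p = 0.858). Its only probe set ends in _x_at, which marks probes that can match further transcripts, so Ins2 cannot be told apart here from its close relative Ins1.

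Iapp encodes islet amyloid polypeptide, and its 4 probe sets gave different values at E14.5. On 1423510_at the ratio was 5.37, 3.50, 2.23 and 5.59 in the KO pancreata, in the order KO_540C, KO_540G, KO_615A and KO_615B, against 0.825 and 1.18 in wildtype. All KO values lay above both wildtype values there, with a log2 fold change of 1.99 (standard error 0.42, limma adjusted p = 0.381). The other 3 probe sets had log2 fold changes of 0.12 (1423509_a_at), 0.41 (1437323_a_at) and 0.14 (1456004_x_at), and on each of these KO and wildtype values overlapped. On 1423509_a_at 1 pancreas, KO_540C, was at 2.20 and the other KO values were 0.769 to 1.05. At E16.5 the ratio on 1423510_at was 1.48, 2.11, 2.28 and 0.817 in KO_541J, KO_541L, KO_591C and KO_591D, against 1.04 and 0.962 in wildtype. There KO_591D alone lay below both wildtype values, and the log2 fold changes of the 4 probe sets ran from 0.08 to 0.64.

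Gcg, which encodes the precursor of glucagon and of the incretin GLP-1, is the gene of alpha cells. At E14.5 its ratio was 1.63, 1.90, 1.39 and 1.34 in KO_540C, KO_540G, KO_615A and KO_615B, against 0.826 and 1.17 in wildtype. The KO values were all above the wildtype values by a narrow margin, with a log2 fold change of 0.65 (95% interval 0.27 to 1.04, limma adjusted p = 0.521). At E16.5 Gcg was at 1.11, 1.37, 1.27 and 1.02 in KO pancreata, in the order KO_541J, KO_541L, KO_591C and KO_591D, against 0.971 and 1.03 in wildtype. Here the lowest KO value lay between the wildtype values, and the log2 fold change was 0.25 (95% interval -0.14 to 0.63).

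Sst encodes somatostatin, the inhibitory hormone of delta cells. Its ratio at E14.5 was 1.30, 1.36, 1.31 and 1.23 in KO_540C, KO_540G, KO_615A and KO_615B, against 1.08 and 0.919 in wildtype. These KO values were the closest to each other of the 12 probe sets on that day (SD 0.0522), and the log2 fold change was 0.38 (95% interval -0.12 to 0.89, limma adjusted p = 0.831). At E16.5 Sst was at 0.862, 1.08, 0.790 and 0.546 in KO_541J, KO_541L, KO_591C and KO_591D, against 1.22 and 0.781 in wildtype. The groups overlapped, and the log2 fold change was -0.29 (95% interval -0.80 to 0.21). Sst was the 1 hormone gene with a fold change above 0 on the earlier day and below 0 on the later, and the 2 effects differed by -0.67 on the log2 scale (95% interval -1.39 to 0.04, limma adjusted p = 0.519).

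Ppy and Ghrl, the genes of PP cells and epsilon cells, lay close to wildtype on both days. At E14.5 Ppy was at 0.848 to 1.26 in KO pancreata, against 0.993 and 1.01 in wildtype, and Ghrl was at 0.855 to 1.09, against 0.942 and 1.06. At E16.5 Ppy was at 0.956 to 1.203, against 0.995 and 1.005 in wildtype, and Ghrl at 0.840 to 1.08, against 0.907 and 1.09. Groups overlapped in all 4 cases. The 95% intervals of the log2 fold change ran from -0.20 to 0.46 (E14.5) and from -0.22 to 0.43 (E16.5) for Ppy, and from -0.30 to 0.29 and from -0.41 to 0.18 for Ghrl. A doubling of either ratio lay outside these intervals. Signal over background is not known here, so the intervals bound the measured ratio and not the transcript itself.

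Pyy, the peptide YY gene, was at 2.04, 2.02, 1.03 and 1.596 in KO_540C, KO_540G, KO_615A and KO_615B at E14.5, against 0.823 and 1.18 in wildtype. Only KO_615A lay within the wildtype range. The log2 fold change was 0.71 (95% interval 0.02 to 1.41, limma adjusted p = 0.716). At E16.5 Pyy was at 1.48, 1.92, 1.56 and 0.881 in KO_541J, KO_541L, KO_591C and KO_591D, against 1.06 and 0.941 in wildtype. Of these KO_591D was the 1 value below both wildtype values, and the log2 fold change was 0.49 (95% interval -0.20 to 1.19).

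Gip, the incretin gene, was the hormone gene that stood above wildtype in every KO pancreas on both days. Its ratio at E14.5 was 2.56, 2.85, 2.07 and 4.12 in KO_540C, KO_540G, KO_615A and KO_615B, against 0.854 and 1.15 in wildtype. At E16.5 it was 1.73, 1.51, 2.04 and 1.55 in KO_541J, KO_541L, KO_591C and KO_591D, against 1.05 and 0.953 in wildtype. The groups did not overlap on either day. The log2 fold change was 1.505 on the earlier day (standard error 0.23, 95% interval 1.001 to 2.01, limma adjusted p = 0.102) and 0.76 on the later one (95% interval 0.26 to 1.27, limma adjusted p = 0.107). Its receptor gene, Gipr, had log2 fold changes of 0.03 and -0.04 on these days.

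Markers of intestinal epithelium, the tissue in which Gip is known from K cells, were read on the same arrays. The mean ratio of 12 such markers was 0.986 to 1.16 in the E14.5 KO pancreata, against 0.964 and 1.04 in wildtype, and 0.904 to 1.03 in the E16.5 KO pancreata, against 0.979 and 1.02 in wildtype. At E14.5 none of the 12 passed (limma, with 0 at an unadjusted p under 0.05), and at E16.5 Vil1, which encodes villin of microvilli, fell in KO (log2 fold change -1.23, limma adjusted p = 0.00356). A further list held 10 stomach markers, epithelial genes and the mesenchymal Barx1. Their mean ratio was 0.960 to 1.19 across the 8 KO pancreata, against 0.967 to 1.03 across the 4 wildtype pancreata. Of these Tff2, which encodes a trefoil peptide of gastric mucus, fell in KO at E16.5 (log2 fold change -0.67, limma adjusted p = 0.016), and Atp4a, a subunit of the gastric proton pump, and Barx1, a factor of stomach mesenchyme, had differences of -0.37 and 0.40 that did not pass. Because the values are ratios, whether a marker was present at all cannot be read from them, for gut or for islet genes.

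Npy, the neuropeptide Y gene, had the highest ratio of any hormone probe set. At E14.5 it was at 5.24, 4.76, 3.39 and 9.95 in KO_540C, KO_540G, KO_615A and KO_615B, against 0.996 and 1.004 in wildtype. All KO values were more than 3-fold the wildtype mean and spread over a wide range, with a log2 fold change of 2.43 (standard error 0.45, 95% interval 1.45 to 3.40, limma adjusted p = 0.227), the 7th highest of the array. At E16.5 Npy was at 3.20, 2.44, 1.64 and 0.973 in KO_541J, KO_541L, KO_591C and KO_591D, against 1.14 and 0.863 in wildtype. Of the KO pancreata 3 lay above both wildtype values and KO_591D between them, and the log2 fold change was 0.92 (95% interval -0.05 to 1.90, limma adjusted p = 0.333).

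Markers of peripheral neurons, which also make neuropeptide Y, were read beside Npy. The mean ratio of 11 peripheral neuron markers at E14.5 was 1.55, 1.39, 1.10 and 1.45 in KO_540C, KO_540G, KO_615A and KO_615B, against 1.02 and 0.975 in wildtype. On that day the marker mean was highest in KO_540C and Npy in KO_615B (9.95), and both were lowest in KO_615A. At E16.5 the marker mean was 5.66, 2.86, 1.84 and 1.251 in KO_541J, KO_541L, KO_591C and KO_591D, against 1.08 and 0.920 in wildtype, which is the order of the 4 KO pancreata on Npy. Nefl, Nefm and Stmn2 carried much of this mean, at 22.3, 13.4 and 7.80 in KO_541J, and the median log2 ratio of the 11 was 1.11, 0.74, 0.33 and 0.15 in the same order of KO pancreata, against 0.12 and -0.13 in wildtype. Ret, a receptor of enteric and sympathetic neurons, had lower values in KO at E16.5 (log2 fold change -0.41, limma adjusted p = 0.149). At E16.5 Elavl4, which encodes a neuronal RNA-binding protein, and Nefl, a neurofilament gene, rose in KO (log2 fold changes 0.88 and 2.91, limma adjusted p = 0.0412 and 0.0488), and at E14.5 none of the 11 passed in limma, with 0 at an unadjusted p under 0.05. Th and Dbh, which encode enzymes of noradrenaline synthesis and mark sympathetic neurons, had differences of 0.03 and 0.07 on the log2 scale at E14.5, and of 0.23 and 0.24 at E16.5. In KO_541J, the highest of its day on Npy, Th was at 1.79 and Dbh at 1.84. Phox2a, a further marker of the list, was at 2.95 there. The other KO values of these genes at E16.5 were 0.950 to 1.39, against 0.917 to 1.08 in wildtype. The part of nerve RNA in the Npy values was not tested.

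**Figure D2:**
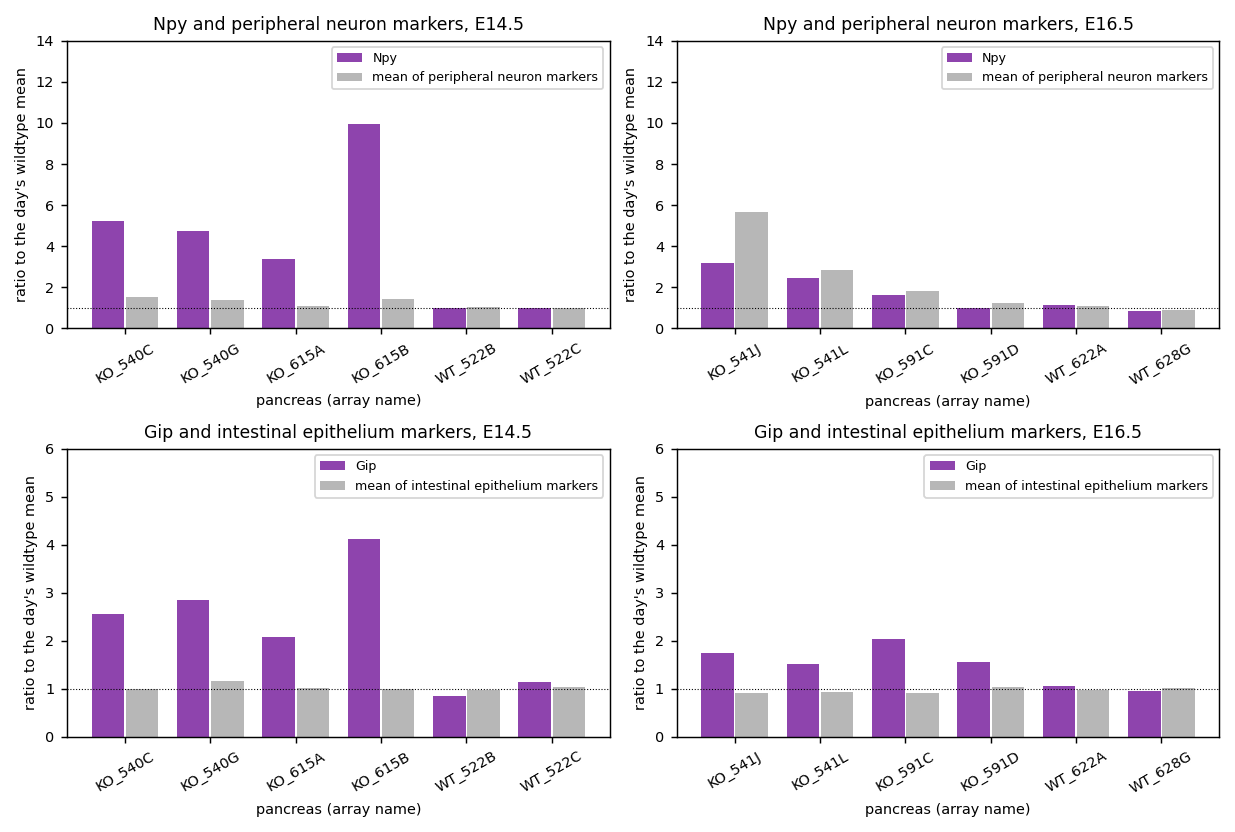
Bars from 0 give, for each pancreas (horizontal axis), the ratio to the day's wildtype mean (vertical axis) of Npy beside the mean of 11 peripheral neuron markers in the upper panels, and of Gip beside the mean of 12 intestinal epithelium markers in the lower panels, at E14.5 left and E16.5 right. The dotted line is the wildtype mean of 1. The neuron mean reaches 5.66 in KO_541J at E16.5 and stays at or below 1.55 in the KO pancreata at E14.5, where Npy reaches 9.95.

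At E16.5, 10 of the 12 hormone probe sets had higher mean log2 ratios in KO, as did 56.1% of all probe sets. None passed (limma adjusted p 0.107 to 0.912), where 2.62% of all probe sets did. Gip alone had an unadjusted limma p under 0.05, in the direction of higher values, against 8.48% of all probe sets (16.6% in either direction), and Gip alone had all 4 KO values above both wildtype values, against 14.5%. No hormone probe set had a log2 fold change over 1, which 0.904% of all had. The median log2 fold change of the 12 was 0.53 (E14.5) and 0.22 (E16.5), beside 0.02 and 0.03 over all probe sets. The E16.5 median rested on single arrays: it was 0.0780 without WT_628G, 0.36 without WT_622A and 0.39 without KO_591D.

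On the same arrays 5 of 9 acinar markers (Cela2a, Cela3b, Cpb1, Prss2 and Rbpjl, of digestive enzymes and an acinar transcription factor) fell in KO at E16.5. In limma 2.62% of all probe sets passed on that day, in either direction. The mean ratio of 9 acinar markers was 0.211, 0.145, 0.375 and 0.450 in KO_541J, KO_541L, KO_591C and KO_591D, against 0.946 and 1.05 in wildtype. At E14.5 it was 1.03 to 1.99 in KO, against 0.935 and 1.07 in wildtype, and none passed (1 at an unadjusted limma p under 0.05). That mean was carried by Cpb1 and Cela2a, with log2 fold changes of 2.18 and 1.28. In contrast, 5 of the 9 had lower mean log2 ratios in KO, as had 44.6% of all probe sets. Among them were Ptf1a (-1.50), a factor of acinar cells, and Cela1 (-1.45). The median log2 ratio of the 9 was -0.06, 0.12, 0.56 and -0.61 in KO_540C, KO_540G, KO_615A and KO_615B, against -0.07 and 0.07 in wildtype. Of 12 mesenchyme markers 11 had higher mean log2 ratios in KO at E14.5, as did 55.4% of all probe sets. None of the 12 passed (1, Lum, at an unadjusted limma p under 0.05, against 6.86% of all probe sets). Their mean ratio was then 1.42, 1.45, 1.205 and 1.39 in KO_540C, KO_540G, KO_615A and KO_615B, against 1.05 and 0.946 in wildtype, with KO_615A lowest as on most hormone probe sets. At E16.5 it was 1.69, 1.97, 1.35 and 1.17 in KO_541J, KO_541L, KO_591C and KO_591D, against 1.08 and 0.917 in wildtype, and the collagen gene Col3a1 and the proteoglycan gene Lum rose in KO. None of 6 liver markers passed on either day in limma. At an unadjusted limma p under 0.05 there were 0 on the earlier day and 3 on the later, against 6.86% and 16.6% of all probe sets. Of these 3, Alb and Fgb were higher in KO (log2 fold changes 0.62 and 1.26, limma adjusted p = 0.0588 and 0.157). Ttr was lower (-0.51, limma adjusted p = 0.169). Alb was at 1.32 to 1.69 in the KO pancreata of that day, against 1.03 and 0.971 in wildtype. Ctnnb1, the gene of β-catenin, was at 0.701 to 1.31 over its 3 probe sets in E14.5 KO pancreata, against 0.957 to 1.04 in wildtype, and at 0.620 to 1.04 in E16.5 KO pancreata, against 0.703 to 1.30 in wildtype, and none of the 3 passed (limma adjusted p 0.152 to 0.920). Whether any of these probe sets lies in the deleted exons is not known here. A change in the share of one cell type alters the share of RNA left to the others, and how far this entered the hormone ratios was not tested.

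The KO effect at E16.5 was then set against the KO effect at E14.5 in the same fit. The E16.5 effect minus the E14.5 effect was below 0 on 10 of the 12 hormone probe sets, and on 47.7% of all probe sets. The difference was -1.99 for Ins2 (standard error 0.48, 95% interval -3.05 to -0.94, limma adjusted p = 0.134), -1.50 for Npy (95% interval -2.88 to -0.12, limma adjusted p = 0.424), -1.36 for Iapp on 1423510_at (95% interval -2.65 to -0.06, limma adjusted p = 0.457) and -0.74 for Gip (95% interval -1.45 to -0.03, limma adjusted p = 0.458). These 4 had an unadjusted limma p under 0.05, as had 5.04% of all probe sets in that direction. None passed after adjustment, where 0.349% of all did, so a smaller effect at E16.5 was not established for any hormone gene. The days share no arrays, and each effect rests on its own 2 wildtype pancreata.

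**Figure D3:**
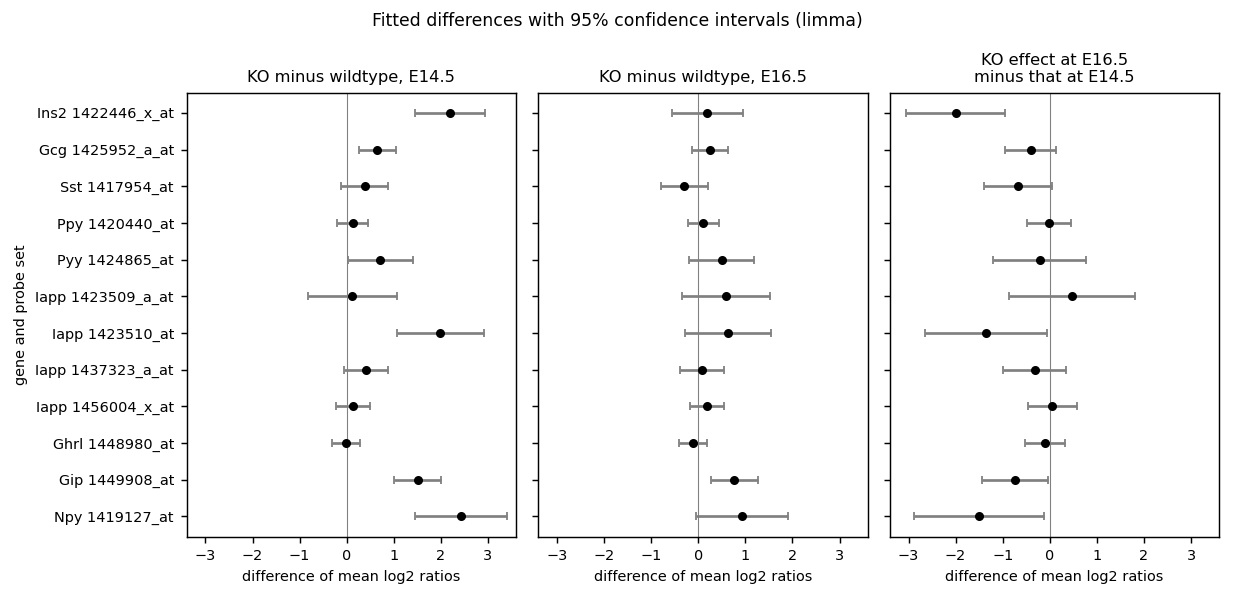
Points are fitted differences of mean log2 ratios (horizontal axis) for the 12 hormone probe sets (vertical axis), with 95% confidence intervals as bars, for KO minus wildtype at E14.5, the same at E16.5, and the E16.5 effect minus the E14.5 effect. The intervals of Ins2, Npy, Gip and Iapp 1423510_at lie above 0 at E14.5 and, for the difference of the effects, below 0.

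Single KO pancreata differed along the hormone genes as a whole. At E14.5 KO_615A had the lowest KO value on 9 of the 12 probe sets, and on 20.5% of all probe sets. It lay above both wildtype values on 6 of the 12, whereas KO_540C did so on 10 and KO_540G and KO_615B on 11 each. The median log2 ratio of the 12 was 0.92, 0.68, 0.21 and 0.54 in KO_540C, KO_540G, KO_615A and KO_615B. KO_615A also had the highest acinar mean ratio of the day, 1.99. At E16.5 KO_591D had the lowest KO value on 8 of the 12, and on 24.3% of all probe sets. It lay below both wildtype values on 6 of the 12. How often a single pancreas lay above or below both wildtype values over all probe sets was not counted. Those counts, here and at E14.5, are therefore descriptions only. The median log2 ratio was 0.17 in KO_541J, 0.36 in KO_541L, 0.47 in KO_591C and -0.05 in KO_591D. In KO_591D, too, the acinar mean ratio was the highest of the 4 KO pancreata of its day, 0.450. The other KO pancreata did not keep an opposite order. KO_591C, with the highest hormone median of E16.5, had an acinar mean ratio of 0.375, above 0.211 in KO_541J and 0.145 in KO_541L. KO_615B had the lowest acinar mean ratio of E14.5, 1.03, but a hormone median below those of KO_540C and KO_540G. No single KO value of the 12 probe sets stood apart by Dixon's gap ratio, whose largest value, 0.777, was under the critical value for 4 samples.

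The first 3 digits of the array names are shared by pairs of KO pancreata, and at E14.5 also by WT_522B and WT_522C. What these digits mark is not given in the sources used here. At E14.5 both KO_540 pancreata lay above both KO_615 pancreata on 4 of the 12 hormone probe sets and below them on 0, against 11.2% and 8.73% of all probe sets. At E16.5 both KO_541 pancreata lay above both KO_591 pancreata on 3 and below them on 2, against 17% and 25.5%. KO and wildtype pancreata share no such number. At E14.5, where both wildtype pancreata carry the same number, a KO effect cannot be told apart from what that number marks.

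Genes of prohormone processing and of the secretory granule were read beside the hormones. Of 13 measured, 13 had higher mean log2 ratios in KO at E14.5 (55.4% of all probe sets) and 11 at E16.5 (56.1%), with medians of 0.46 and 0.33 beside 0.02 and 0.03 over all probe sets. None passed on either day, and 5 at E14.5 and 4 at E16.5 had an unadjusted limma p under 0.05, all higher in KO, against 2.34% and 8.48% of all probe sets. Chga, which encodes chromogranin A, was at 2.83, 1.99, 1.12 and 3.19 in KO_540C, KO_540G, KO_615A and KO_615B, against 0.799 and 1.201 in wildtype (log2 fold change 1.11, limma adjusted p = 0.647). KO_615A lay within the wildtype range, as it did for Pyy. Scg3, a granin that helps to sort cargo to granules, had log2 fold changes of 0.96 (E14.5) and 0.95 (E16.5). Chgb, which encodes chromogranin B, had log2 fold changes of 0.01 (E14.5) and 1.04 (E16.5) (limma adjusted p = 0.998 and 0.0714), and the difference between the days had an adjusted p of 0.361 in limma. At E16.5 Chgb was at 1.78, 3.05, 2.60 and 1.26 in KO_541J, KO_541L, KO_591C and KO_591D, against 0.961 and 1.04 in wildtype, so all KO values were higher, with KO_591D again the lowest. Vgf, a secretory granule precursor of neurons and endocrine cells, had 0.40 and 0.67 on the 2 days.

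Transcription factors that control hormone genes gave a mixed picture. Of 15 measured, 9 had higher values at E14.5 (55.4% of all probe sets) and 14 at E16.5 (56.1%). Their medians were 0.15 and 0.24, beside 0.02 and 0.03 over all probe sets. None passed (at an unadjusted limma p under 0.05, 2 on the earlier day and 3 on the later, against 6.86% and 16.6% of all probe sets). Isl1, a LIM-homeodomain factor of all islet cell types and of many neurons, was at 1.93, 1.92, 1.53 and 2.63 in KO_540C, KO_540G, KO_615A and KO_615B, against 0.989 and 1.01 in wildtype. All 4 KO values lay above wildtype, with a log2 fold change of 0.97 (limma adjusted p = 0.629), and at E16.5 it was 0.93 (limma adjusted p = 0.183). Hhex, a homeobox factor that delta cells need in order to make somatostatin, had lower values in KO at E14.5. It was at 0.501, 0.406, 0.772 and 0.421 in KO_540C, KO_540G, KO_615A and KO_615B, against 0.980 and 1.02 in wildtype (log2 fold change -0.98, limma adjusted p = 0.516). Sst itself had higher values in these same 4 pancreata. Neurod1, a factor that acts on the insulin gene, had log2 fold changes of 0.25 and 0.92, Irx1, an alpha cell factor, 0.18 and 0.76, and Neurog3, which starts the endocrine program, -0.05 and 0.19 at E14.5 and E16.5.

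Hormone receptors and further gut peptides were read in the same way. Of 19 receptor and receptor-partner genes measured, 13 had higher values at E14.5 (55.4% of all probe sets) and 17 at E16.5 (56.1%). Their medians were 0.07 and 0.14, beside 0.02 and 0.03 over all probe sets. Npy1r, a receptor of neuropeptide Y, had log2 fold changes of -0.20 and 0.37, Ramp1, a partner of the calcitonin-type receptors that bind amylin and CGRP, 0.46 and 0.71, and the somatostatin receptor Sstr3 0.29 and 0.25. Of 14 other gut hormones and neuropeptides, 10 and 11 had higher values, against the same shares of 55.4% and 56.1%, with medians of 0.10 and 0.16. Vip, a neuropeptide of enteric and pancreatic nerves, had the largest difference of these at E16.5, with 4.07, 5.93, 2.64 and 1.32 in KO_541J, KO_541L, KO_591C and KO_591D, against 0.817 and 1.18 in wildtype (log2 fold change 1.62, limma adjusted p = 0.151). None of these genes passed on either day, and at an unadjusted limma p under 0.05 there were 1 receptor gene at each day and 0 and 4 of the other peptides, against 6.86% and 16.6% of all probe sets.

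**Figure D4:**
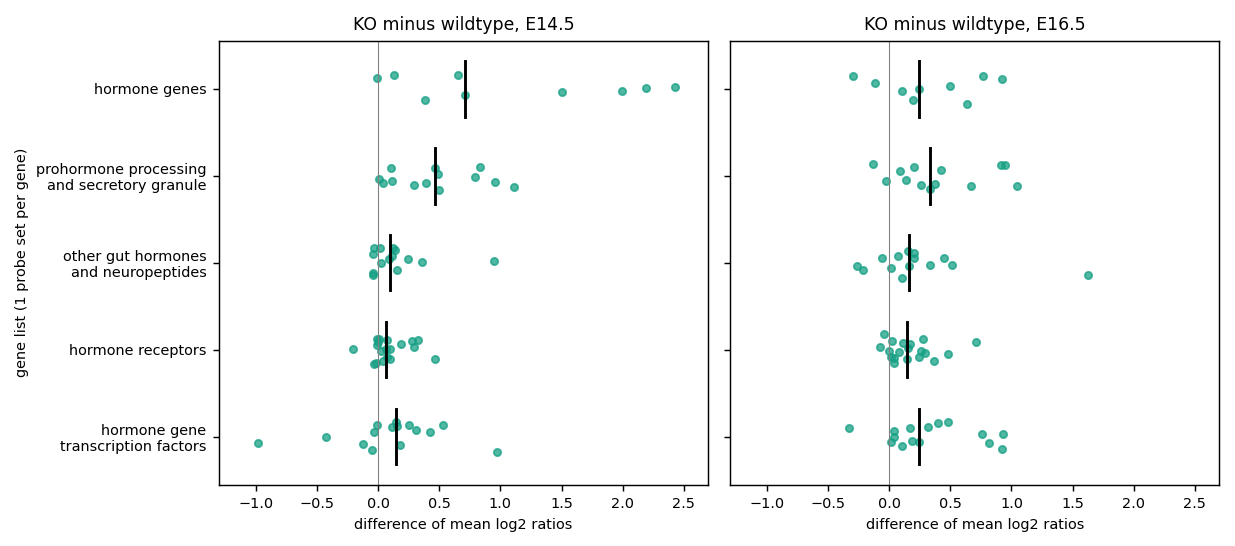
Each point is a gene on 1 probe set, placed by its difference of mean log2 ratios, KO minus wildtype (horizontal axis), at E14.5 left and E16.5 right, with the gene lists down the vertical axis and the median of each list as a bar. The hormone genes reach 2.43 (E14.5) and 0.92 (E16.5), and the granule genes have medians of 0.46 and 0.33.

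The hormone probe sets were correlated with each other and with all named genes over the 12 arrays, as a description, since the arrays share 4 groups and a difference between groups alone gives a high r. Among the hormones the closest pairs were Ins2 with Iapp 1423510_at (Pearson r 0.927), Iapp 1423510_at with Npy (0.926) and Gip with Npy (0.915). The 4 Iapp probe sets did not follow each other evenly, with an r between 1423510_at and the others of 0.816 (1437323_a_at), 0.209 (1456004_x_at) and 0.167 (1423509_a_at). Of other named genes, Dmpk and Cpa3 were closest to Ins2 (0.951 and 0.929), Sytl4, Pim2 and G6pc2 to Iapp 1423510_at (0.942, 0.940 and 0.934), Trpc6 and Slc16a14 to Gip (0.965 and 0.942), and Gata2 and Htra3 to Npy (0.954 and 0.949). Of these, G6pc2 encodes a glucose-6-phosphatase of islets, Cpa3 a carboxypeptidase of mast cells, Sytl4 a granule protein that takes part in hormone release, and Gata2 a zinc-finger factor of blood and nerve cells. Gsc was closest to Gcg (0.973) and Lima1 to Sst (0.963).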

How the data were processed

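RNA of single pancreata was amplified in 2 rounds and hybridized to Affymetrix MOE430 2.0 arrays. The authors applied RMA in GeneSpring and deposited, for each probe set, its linear ratio to the day's wildtype mean. The 2 wildtype ratios sum to 2 within 3e-07 on every probe set, and values run from 0.01 to 26.4. Signal over background is thus unknown, and the number of arrays limits precision. The array names give E14.5 where the deposited design text has the earlier day slightly later.

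Of 45101 probe sets 64 controls were set aside. Log2 ratios of the other 45037 were fitted as 4 groups with limma 3.58.1 in R 4.3.3 (8 residual degrees of freedom), and p values were adjusted over all of them by Benjamini-Hochberg, with 0.05 as the limit. The fit was tested on simulated data. Labels do not say whether embryos of a group came from separate litters, so p values measure the spread between these pancreata. Gene symbols come from GEO's platform annotation. All hormone probe sets are named. For lists, 1 probe set a gene was chosen by its name (_at before _a_at before _x_at, lowest number first). Of the other lists the text names genes called and some of the 4 a list with the smallest p. It also names Gipr, Neurog3, Th, Dbh, Phox2a, Stmn2, Ret, Ptf1a and Cela1, chosen after their values were seen. The hormone genes and the lists were chosen with earlier results of these data known. The 3 named genes with the highest Pearson r to each hormone were sought over 12 arrays. Upstream windows are RefSeq's. The alternatives, given below, included array weights, a random block (statmod 1.5.0), other normalizations and leaving out each array. Python 3.11.15 and matplotlib 3.10.9 were used for plots. No raw arrays were used here.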

Additional observations from a re-analysis of the deposited data

How the results depend on the processing

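The count of hormone probe sets that passed at E14.5 was 0. It was 3 with array weights (30 in all passed, against 5), and 0 to 2 when each KO array was left out in turn. Without KO_615A it was 2, where 19 in all passed, and without KO_591D it was 1, Ins2, at a limma adjusted p of 0.0385. With the methods' t-test without adjustment it was 6, where 2269 of the 45037 probe sets passed. That t-test, adjusted or not, was run here over all probe sets, without the filter on ratios that the authors applied first. At E16.5 the count was 0, and 1 (Gip) with the methods' t-test without adjustment, where 5539 of the 45037 probe sets passed. For the difference of the effects it was 0 under every alternative run. Trended variance, single-day fits, quantile normalization, median centring, dropping _x_at and _s_at probe sets, the random block on the number in array names (consensus correlation -0.0876) and the adjusted t-test left all counts at 0. The median log2 fold change ran from 0.43 to 0.73 at E14.5 and from 0.08 to 0.39 at E16.5. The lowest E16.5 value was without WT_628G and the highest without KO_591D, and it was 0.37 without _x_at probe sets.

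Of the log2 fold changes of single probe sets, 680 values under the alternatives kept their direction and side of the limit. Another 13 went past the limit and 21 changed sign. Among the 13, 6 at E14.5 and 1 at E16.5 did so by the methods' t-test, on a p without adjustment. The difference of the effects became 0.00541 for Ppy with quantile normalization, and 0.0634 for Ppy and 0.0171 for Pyy with array weights. Leaving out each array in turn gave, at E14.5, -0.22 to 0.29 for Iapp 1423509_a_at, -0.11 to 0.39 for Iapp 1456004_x_at and -0.0897 to 0.0773 for Ghrl. At E16.5 it gave -0.62 to 0.0271 for Sst and -0.25 to 0.0203 for Ghrl. For the difference of the effects it gave -0.15 to 0.0469 for Ppy, -0.47 to 0.0413 for Pyy, -0.0642 to 0.99 for Iapp 1423509_a_at, -0.20 to 0.31 for Iapp 1456004_x_at and -0.24 to 0.0265 for Ghrl. The cause was not tested. No paired analysis was possible because KO and wildtype arrays share no replicate number. With 2 wildtype arrays a day, hormone genes that did not pass may still differ.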
